A study of Mus musculus with 6 samples.

Results

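Trem2, Tyrobp, Gpnmb, Apoe, Abca1, Abcg1, Lpl, Cd9, Cd36 and Lgals3 make up a set of 10 lipid-handling genes of Trem2-expressing macrophages, out of 33696 genes counted in single cells from 6 mouse kidneys. The genes were chosen by symbol, with earlier results of these data known, and each symbol matched 1 gene row. The cells in which they were read were selected on measured values: the share of mitochondrial UMIs per barcode, the UMIs of marker genes that named each cluster and, for the division of macrophages, whether a cell held a Trem2 UMI. A UMI is a unique molecular identifier, which marks 1 captured RNA molecule, so a UMI count is a count of molecules.

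TREM2 is a lipid-sensing receptor of macrophages and microglia that has no signalling tail of its own and signals through the adaptor TYROBP (DAP12), which also serves receptors of NK cells and neutrophils. APOE is the main apolipoprotein that macrophages secrete and a ligand that TREM2 binds, ABCA1 and ABCG1 carry cholesterol out of the cell to lipoproteins, and LPL and CD36 bring fatty acids in by cleaving triglycerides and by taking up fatty acids and oxidised lipoproteins. GPNMB, the tetraspanin CD9 and galectin-3 (encoded by Lgals3) are best known from macrophages that have taken up lipid or cell debris, although tubular and collecting duct cells make CD9 and galectin-3 too.

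Male C57BL/6 mice of 8 to 10 weeks were used, 3 in each group. For DOCA-salt, a mineralocorticoid model of hypertensive kidney injury, the left kidney was removed and, 1 week later, a pellet with 50 mg of deoxycorticosterone acetate was implanted and the drinking water replaced by 1% NaCl for 21 days. Sham mice had the surgery without removal of a kidney, no pellet and normal water. The kidney loss, the hormone and the salt were given together, so their effects cannot be told apart, and all 6 kidneys went through the same collagenase II digestion and 10x Genomics 3′ library chemistry. Each library came from a separate mouse, and the p-values below measure the spread between these mice.

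Libraries held 93172739 to 137819127 UMIs, and 7701 to 9933 cells per mouse (55630 in all) passed the filters, with a median of 4787 to 9148 UMIs. Of the kept barcodes, 1.16 to 1.51% also occurred in another mouse. An unnamed cluster with fibroblast genes drew 616 of its 624 cells from DOCA-salt mouse 2. In the main clustering it entered the whole-kidney sums and the sum of no named cell type. The macrophages taken barcode by barcode, given below, were picked from all kept cells, this cluster included. Macrophage-like clusters held 2194 cells: 152, 136 and 137 in the sham mice, and 446, 642 and 681 in the DOCA-salt mice. The clusters were named from their markers, so marker levels describe them and are no check of the name. Of these markers, C1qa, C1qb, C1qc, Adgre1, Csf1r, Fcgr1, Mrc1 and Cd68 were detected in both groups, with a summed level of these 8 of 10648 to 12371 counts per 1000000 UMIs (CPM) in sham and 12826 to 13653 CPM in DOCA-salt macrophages, against 144 to 405 CPM in dendritic-like cells.

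Markers of other cells differed between the groups in macrophages. The 9 proximal tubule markers were all detected in macrophages of both groups, at 2407 to 4829 CPM in sham and 1236 to 1879 CPM in DOCA-salt mice, and for 4 of the 9 every DOCA-salt mouse was below every sham mouse. Of 7 fibroblast markers, 1 was detected in sham macrophages (summed level 0 to 1.87 CPM) and all 7 in DOCA-salt macrophages (18.2 to 32.1 CPM). All 5 cycling markers were higher in every DOCA-salt mouse than in every sham mouse, with sums of 7.16 to 59.4 and 83.7 to 198 CPM. The sums of 3 more lists did not overlap either: 8 dendritic markers (42.9 to 49.3 CPM in sham and 15.6 to 27.6 CPM in DOCA-salt macrophages), 6 neutrophil markers (18.7 to 26.1 and 39.9 to 45.7 CPM) and 6 markers of the distal convoluted and connecting tubule (618 to 725 and 762 to 821 CPM). The sums of the remaining lists, for other cell types, overlapped. How many of all genes separate the groups in this way was not counted, so the counts without overlap only describe these markers. The part of these markers in the results below was not tested.

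Trem2, Apoe, Abca1 and Cd36 were the members whose level in macrophages passed the test between sham and DOCA-salt, and their promoters are shown so that their letters can be read beside the values. Each is the 250 bases before a transcript start, 5′ to 3′ on the strand of the gene, from RefSeq on the build GRCm38.p6, and capitals mark the motifs that were searched for.
Trem2 (chr17:48346151-48346400, + strand): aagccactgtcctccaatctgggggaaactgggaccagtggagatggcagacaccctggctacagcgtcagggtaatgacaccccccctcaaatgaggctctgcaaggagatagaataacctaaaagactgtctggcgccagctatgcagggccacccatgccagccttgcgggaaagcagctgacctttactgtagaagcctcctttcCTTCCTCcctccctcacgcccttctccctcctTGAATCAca
Apoe, the most distal of 3 listed starts (chr7:19699189-19699438, − strand): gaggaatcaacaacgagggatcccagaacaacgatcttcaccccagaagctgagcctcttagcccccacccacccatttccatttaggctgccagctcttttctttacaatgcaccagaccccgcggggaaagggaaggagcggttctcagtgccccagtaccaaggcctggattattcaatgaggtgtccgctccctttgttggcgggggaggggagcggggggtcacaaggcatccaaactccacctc
Abca1 (chr4:53159896-53160145, − strand): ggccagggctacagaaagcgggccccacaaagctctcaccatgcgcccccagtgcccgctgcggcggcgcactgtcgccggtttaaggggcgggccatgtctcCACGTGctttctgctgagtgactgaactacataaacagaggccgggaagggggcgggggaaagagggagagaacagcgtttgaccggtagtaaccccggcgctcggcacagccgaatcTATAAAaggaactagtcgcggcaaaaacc
Cd36 (chr5:17835897-17836146, − strand): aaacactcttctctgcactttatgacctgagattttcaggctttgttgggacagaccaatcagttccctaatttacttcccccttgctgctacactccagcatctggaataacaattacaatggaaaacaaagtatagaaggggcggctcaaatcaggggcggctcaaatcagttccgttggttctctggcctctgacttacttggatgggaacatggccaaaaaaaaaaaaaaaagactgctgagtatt
The motifs, read on both strands, were CACGTG (an E-box, held by 6.02% of all 32851 promoter windows of this length), GAGGAAG (an ETS site, the family of PU.1; 10.6%), TGANTCA (an AP-1 site; 6.75%), TATAAA (the core promoter motif known as a TATA box; 12.4%) and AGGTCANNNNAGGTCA (the DR4 repeat of liver X receptors; 0.0152%). Trem2 held an ETS site on the opposite strand 41 bases before its start and an AP-1 site 9 bases before it. Abca1 held the E-box at 147 bases and a TATA box at 29 bases before its start, while the Apoe and Cd36 windows shown held none of the 5 motifs. Of the 2 Apoe windows not shown, 1 held 2 overlapping TATA box matches. The set of promoters used held 7 of the 10 members, in 9 windows. It had no entry for Tyrobp, Abcg1 and Lpl. A match is a string of letters and was not measured as a binding site. Apart from N, which stood for any base, letters had to match exactly. Sites that differ by a letter, of DR4 or the other motifs, were not searched for. A window without a match is therefore not shown to lack such a site.

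The genes lie on 7 chromosomes, with 2 members each on chromosomes 6, 7 and 17, and none overlaps another (build GRCm39, GENCODE vM39). Trem2 spans chr17:48653429-48661175 and Tyrobp chr7:30113170-30117010, the latter 125 bp from Hcst, which encodes the related adaptor DAP10. Apoe (chr7:19430034-19434947) lies 291 bp from Tomm40, and Abca1 (chr4:53030787-53159900) and Cd36 (chr5:17986432-18094067) are the longest members, at 129 and 108 kb. Other annotated transcripts overlap 7 members: on the opposite strand for Trem2, Gpnmb, Apoe, Lpl and Cd36, on the same strand for Abcg1, and on both for Cd9. UMIs of overlapping same-strand transcripts cannot be told apart by position.

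Macrophages held most of the kidney's Trem2 and Tyrobp UMIs in both groups, and most of its Apoe UMIs only in DOCA-salt kidneys. Of all Trem2 UMIs, 78.1% of 114 in sham and 87.3% of 2622 in DOCA-salt kidneys lay in macrophage-like cells, and for Tyrobp the shares were 55.6% and 79.7%, with dendritic-like cells next at 14.9% and 8.11%. For Apoe the macrophage share was 23.8% in sham kidneys, where proximal tubule cells held 52.6%, and 64.7% in DOCA-salt kidneys, where proximal tubule cells held 15.1%. These are shares of UMIs pooled over 3 mice and follow the number of cells of each type as well as the level per cell.

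The remaining members were spread over the tubule, the endothelium and the stroma. Proximal tubule cells held most sham UMIs of Abca1 (56.0%), Lpl (76.5%) and Cd36 (80.8%), and macrophages held 2.03%, 0.852% and 7.72%. In DOCA-salt kidneys the macrophage shares were 17.5% for Abca1, 5.66% for Lpl and 29.2% for Cd36. Abcg1 lay mainly in thin limb cells in sham kidneys (42.4%) and in endothelial cells in DOCA-salt kidneys (49.4%). Cd9 and Lgals3 were mostly tubular and collecting duct transcripts, with 1.09% and 3.88% of their sham UMIs in macrophages. Gpnmb had 32 UMIs in the sham kidneys and 456 in the DOCA-salt kidneys, of which fibroblast-like cells held 29.2% and macrophages 47.8% in the latter. That order rested on DOCA-salt mouse 2: without it, fibroblast-like cells held 80 and macrophages 24 of 167 UMIs (47.9% and 14.4%).

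**Figure D1:**
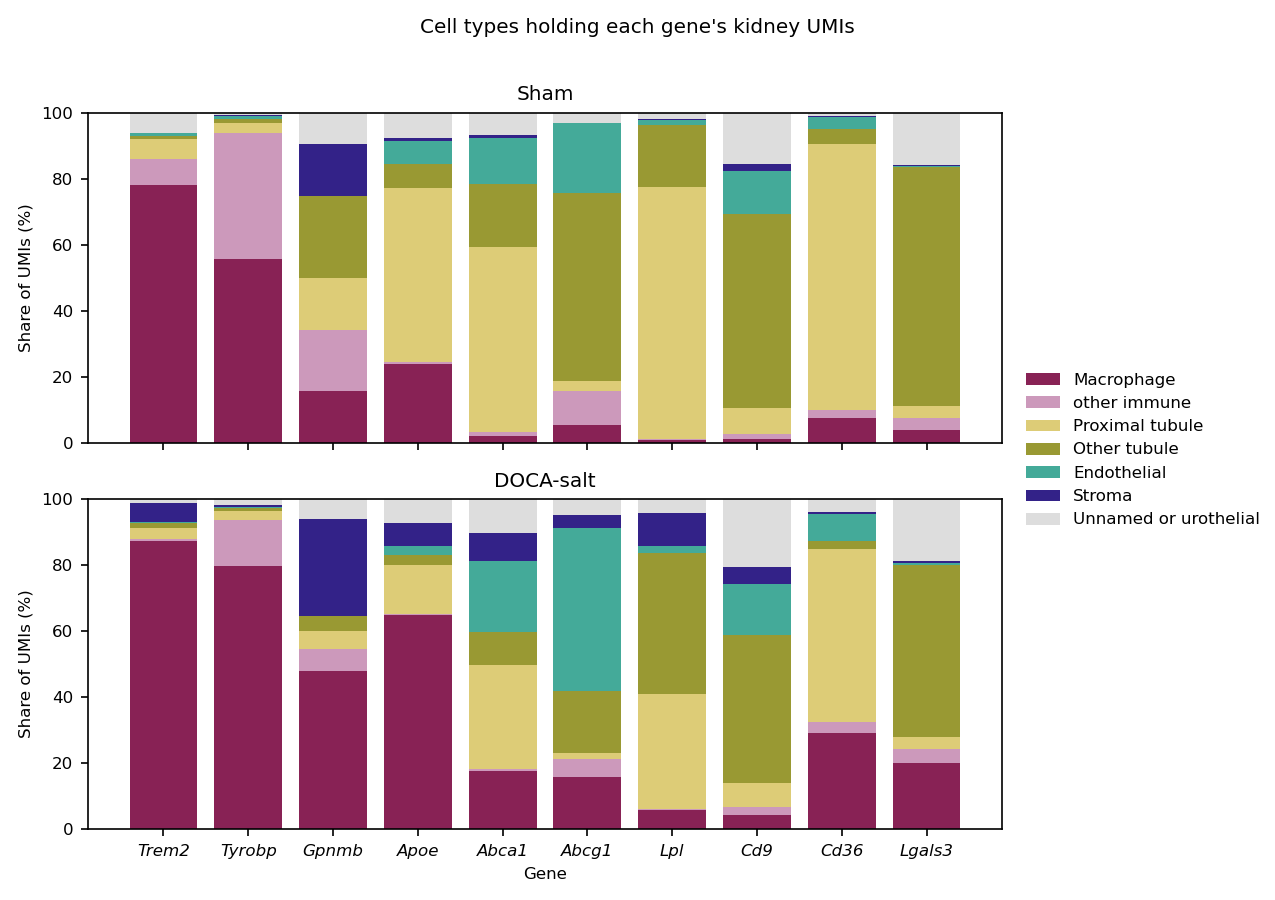
Stacked bars give, for each gene, the share (%) of its kidney UMIs that lay in each group of cell types, pooled over 3 sham (upper) and 3 DOCA-salt mice (lower); stroma is fibroblasts, smooth muscle cells and pericytes. Macrophages hold 78.1% and 87.3% of the Trem2 UMIs, and the Apoe bar passes from mainly proximal tubule (52.6%) to mainly macrophage (64.7%).

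Levels per cell type gave the same genes a different order. The mean Trem2 level of sham mice was 48.0 ± 21.5 CPM (SD, n = 3) in macrophages and 45.1 ± 7.75 CPM in monocyte-like cells, a gap within the spread, and 0.114 CPM or less in endothelial, tubular, dendritic, T and B cells. Tyrobp was found in every myeloid type and in NK-like cells: in sham mice at 1368 ± 254 CPM in macrophages, 2399 ± 632 CPM in monocytes, 766 ± 269 CPM in dendritic cells and 1237 ± 400 CPM in NK-like cells, with 3495 and 5164 CPM in the neutrophils of the 2 sham mice that had at least 10. Cd36 in sham mice was 610 ± 47.1 CPM in macrophages, 739 ± 134 CPM in monocytes and 77.7 ± 5.91 CPM in proximal tubule cells. Lpl was at 640 ± 84.8 CPM in thick ascending limb cells, 415 ± 79.5 CPM in distal convoluted and connecting tubule cells, 346 ± 101 CPM in proximal tubule cells and 309 ± 28.8 CPM in macrophages. Thick ascending limb cells lay above the other 3 of these types in every sham mouse, proximal tubule cells overlapped with both of their neighbours in this order, and macrophages lay below the distal cells. Lgals3 reached 974 ± 157 CPM in principal cells and 494 ± 43.2 CPM in macrophages.

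**Figure D2:**
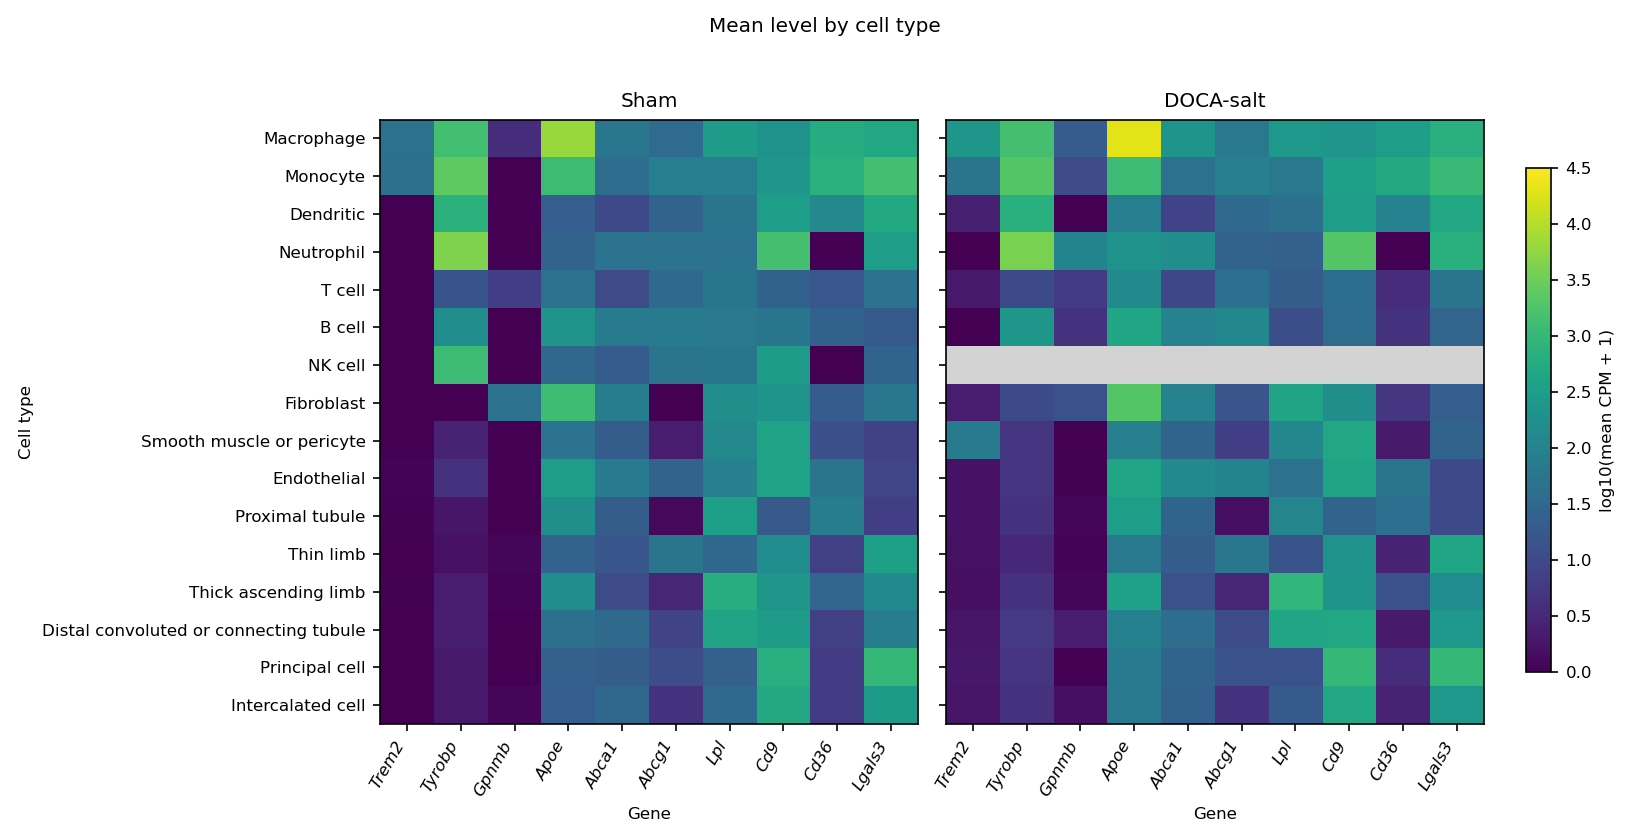
Colour gives log10(mean CPM + 1) of each gene (columns) in each cell type (rows) over the mice with at least 10 cells of the type, for sham (left) and DOCA-salt (right); NK cells (grey) had fewer than 10 cells in every DOCA-salt mouse. Trem2 stands out in macrophages and monocytes, and in DOCA-salt kidneys also in smooth muscle cells and pericytes (73.4 CPM).

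In macrophages, Trem2, Apoe and Abca1 rose and Cd36 fell in DOCA-salt mice, while Tyrobp, Abcg1, Lpl, Cd9 and Lgals3 did not pass the test and Gpnmb was too low to be tested. Of the 9 members tested, 3 were called higher, against 2.63% of the 9275 genes tested, and 1 was called lower, against 3.15%. The test was edgeR's quasi-likelihood F test on UMIs summed per mouse, p-values were adjusted by Benjamini-Hochberg across the whole table with a threshold of 0.05, and the median log2 change of all genes was −0.0045. Because the set was named with results of these data known, the counts describe it.

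Trem2, the receptor, was at 72.5, 32.2 and 39.2 CPM in the macrophages of the 3 sham mice and at 233, 265 and 209 CPM in the DOCA-salt mice. Every DOCA-salt mouse lay well above every sham mouse. The log2 fold change was 2.14 ± 0.22 (SE), a 4.41-fold rise with an edgeR adjusted p of 2.66e-05. Tyrobp, its adaptor, was at 1562, 1080 and 1461 CPM in sham and 1479, 1716 and 1349 CPM in DOCA-salt macrophages. The groups overlapped, and the log2 change was 0.02 ± 0.18 (edgeR adjusted p = 0.970). The difference between the changes of receptor and adaptor was not tested.

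Apoe, the apolipoprotein, was at 7636, 4397 and 7149 CPM in sham and at 21103, 22963 and 16875 CPM in DOCA-salt macrophages. The groups were far apart, at means of 6394 ± 1747 and 20314 ± 3120 CPM (SD, n = 3 each). The rise was 2.91-fold (log2 1.54 ± 0.23, edgeR adjusted p = 0.000563). Apoe was also read more often in cells that should lack it: with each cell thinned to 1000 UMIs, the share of T cells with an Apoe UMI was 5.54% in sham and 10.3% in DOCA-salt mice, and that of B cells 15.1% and 29.3%. In macrophages the same share went from 78.8% to 95.5%. The part of free RNA in the macrophage values was not tested.

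Both cholesterol exporters were higher in each DOCA-salt mouse, and Abca1 alone of them passed the test. Abca1 was at 68.1, 60.9 and 44.8 CPM in sham and 203, 212 and 235 CPM in DOCA-salt macrophages. Its groups did not overlap, and its 3.40-fold rise (log2 1.77 ± 0.18) had an edgeR adjusted p of 2.01e-05. Abcg1 was at 40.6, 46.6 and 24.3 CPM against 56.4, 64.5 and 66.1 CPM. Each DOCA-salt mouse was above each sham mouse, but the log2 change of 0.62 ± 0.21 missed the threshold (edgeR adjusted p = 0.112), and it passed without the filter on low counts (0.0362) and without removal of doublets (0.0446). In macrophages taken barcode by barcode the change was 0.07 ± 0.33 (0.963) and the groups overlapped.

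Of the uptake genes, Cd36 fell and Lpl did not pass. Cd36, the fatty acid and scavenger receptor, was at 568, 661 and 601 CPM in sham and 317, 335 and 362 CPM in DOCA-salt macrophages. The groups were well apart, and the level in DOCA-salt was 0.508 of that in sham (log2 −0.98 ± 0.15, edgeR adjusted p = 0.000626). Within cluster 26, which held 255 of the 425 sham macrophages, its log2 change was −0.03 ± 0.24. Lpl was at 341, 285 and 300 CPM against 193, 335 and 219 CPM, with DOCA-salt mouse 2 among the sham mice. Its log2 change was −0.43 ± 0.19 (edgeR adjusted p = 0.240), and it was called without that mouse (−0.69, 0.0216) and when the cells were clustered at resolution 2 (−0.88, 0.00165). Proximal tubule cells, whose markers were lower in DOCA-salt macrophages as given above, hold both transcripts: at 77.7 CPM in sham, Cd36 was lower there than in macrophages, whereas Lpl at 346 CPM was not. The share of T cells with a Lpl UMI also went from 4.45% to 1.84%, and that of macrophages from 23.3% to 14.6%. For Cd36 the share in T cells went from 1.32% to 0.304% (14.5, 17.2 and 14.5 CPM against 3.33, 0 and 4.64 CPM, from 17 and 5 UMIs, without overlap), and that in macrophages from 35.9% to 19.0%. The part of free RNA was tested for neither gene.

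Lgals3, encoding galectin-3, was at 538, 451 and 493 CPM in sham and 511, 907 and 595 CPM in DOCA-salt macrophages, with overlap and a log2 change of 0.32 ± 0.20 (edgeR adjusted p = 0.436). Cd9 was at 109, 297 and 170 CPM against 232, 208 and 219 CPM. The DOCA-salt mice all lay inside the sham range (log2 0.08 ± 0.24, edgeR adjusted p = 0.913). Gpnmb was at 1.45, 7.16 and 0 CPM in sham and 3.90, 49.5 and 4.41 CPM in DOCA-salt macrophages. Of the 194 macrophage Gpnmb UMIs of DOCA-salt mouse 2, 193 lay in 3 cells, with 75, 62 and 56 UMIs. Without these 3 cells that mouse was at 0.260 CPM, and the group means differed by −0.0152 CPM (DOCA-salt minus sham). Gpnmb entered edgeR's test, and passed it, once the filter on low counts was removed.

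**Figure D3:**
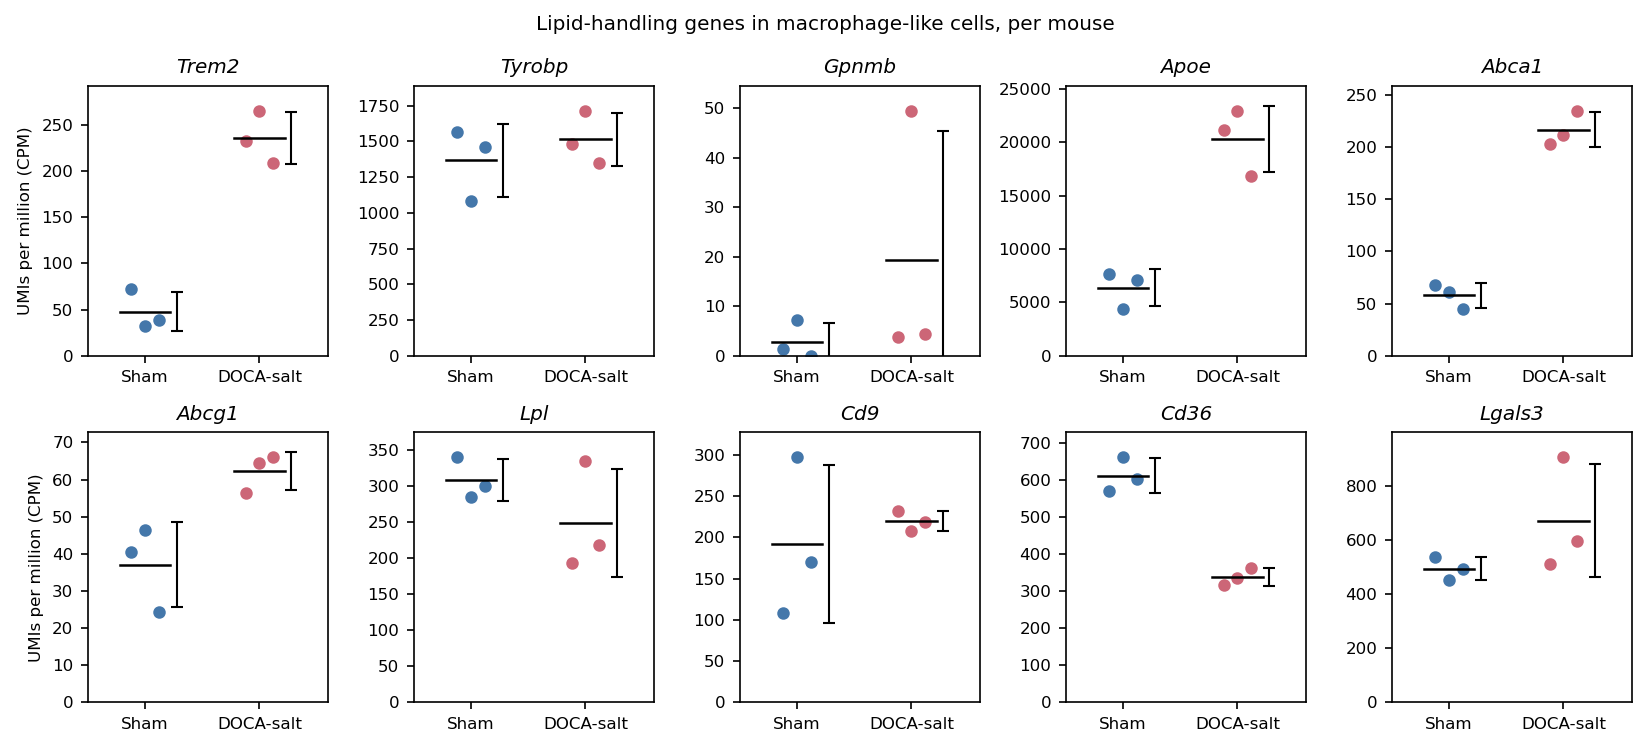
Points give each gene's level (CPM) in macrophage-like cells of each of 3 sham (blue) and 3 DOCA-salt mice (red), with the mean (line) and SD (bar). Groups are apart for Trem2, Apoe, Abca1, Abcg1 and Cd36 and overlap for the other 5 genes, and 1 mouse sets the Gpnmb mean.

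The 3 Gpnmb-rich cells of DOCA-salt mouse 2, picked out after their values were seen, carried 38, 39 and 21 Trem2 UMIs and 69, 331 and 301 Lgals3 UMIs in 13818, 33544 and 25742 UMIs in all. They also held 221, 207 and 199 UMIs of Fabp5, a fatty acid binding protein, and 62, 468 and 326 of Spp1, the secreted phosphoprotein osteopontin. The macrophage markers differed among them: the cell with 75 Gpnmb UMIs had 1 UMI of C1qa, 0 of Csf1r and 16 of Ctsk, the protease cathepsin K, whereas the other two had 74 and 68 of C1qa, 5 and 11 of Csf1r and 0 of Ctsk. All 3 fell in cluster 39, whose 168 cells (13 of them in sham mice) lead with Mmp12 and Lyz2. The naming of this cluster is less certain: its macrophage score, a mean of standardised marker levels, was 1.59 against 1.33 for the next marker list. In the other macrophage clusters the next list scored 0.41 to 0.52. In the DOCA-salt cells of cluster 39 Lgals3 was at 1388, 2970 and 1662 CPM, Cd9 at 745, 742 and 575 CPM and Lpl at 330, 838 and 546 CPM, all above the whole macrophage class of the same mouse. Apoe there was at 12160, 10792 and 10205 CPM, below the class in each mouse. Levels by cluster are a description, with no test. The members were kept out of the genes that clustered the cells.

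The share of macrophages with a Trem2 UMI was higher in each DOCA-salt mouse than in each sham mouse. As counted, 32 of 152, 14 of 136 and 15 of 137 sham macrophages and 221 of 446, 319 of 642 and 278 of 681 DOCA-salt macrophages had at least 1. With each cell thinned to 1000 UMIs, which left out 13 sham and 146 DOCA-salt cells that were shallower, the shares were 6.49, 3.04 and 2.94% in sham and 18.9, 18.3 and 15.7% in DOCA-salt mice, or 4.16 ± 2.02% and 17.7 ± 1.69% (SD, n = 3). The difference of 13.5 percentage points had an exact permutation p of 0.1, the smallest that 3 against 3 mice can give. T cells, which should lack the receptor, were at 0 to 0.297% and B cells at 0% (0 of 214 cells as counted, which allows a share of up to 1.40%, counting error only), with median depths of 2542 to 3855 UMIs per cell by group against 3890 (sham) and 4870 (DOCA-salt) in macrophages. In monocyte-like cells the share was 4.24 ± 0.842% in sham and 4.55 ± 1.42% in DOCA-salt mice, and in dendritic-like cells 0% and 0.0705%. As counted, without thinning, 0 of 109 sham dendritic-like cells had a Trem2 UMI, which allows a share of up to 2.75% with a UMI, and the mean share in DOCA-salt mice was 1.64%.

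**Figure D4:**
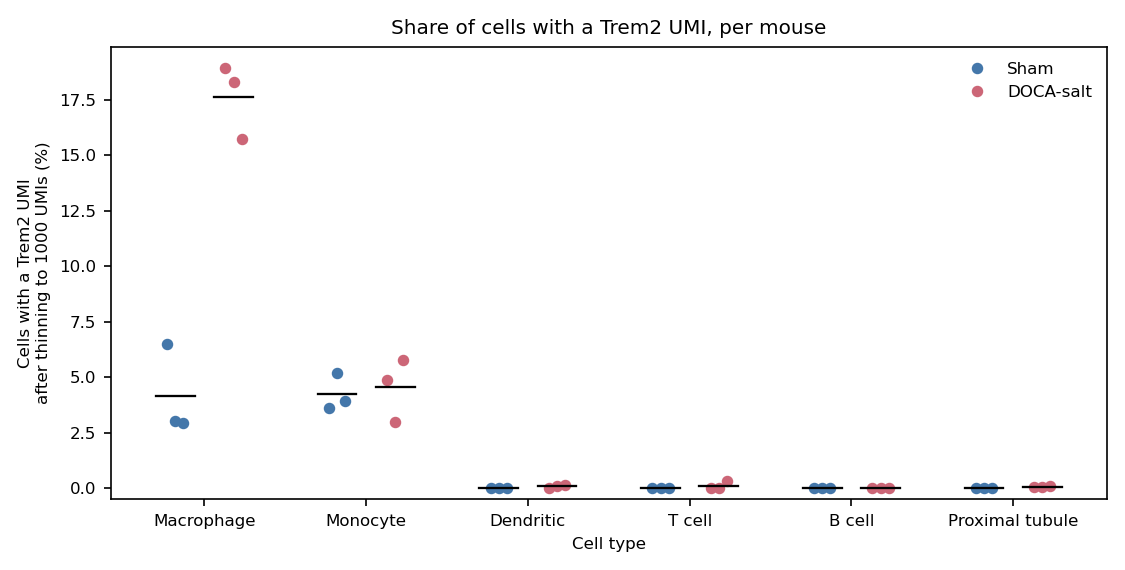
Points give the share (%) of cells with at least 1 Trem2 UMI after thinning to 1000 UMIs in each sham (blue) and DOCA-salt mouse (red), and lines the group means. DOCA-salt macrophages sit between 15.7 and 18.9%, above sham macrophages at 2.94 to 6.49%, and monocytes overlap.

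Among macrophages of the same mouse, those with a Trem2 UMI had more Apoe and more Tyrobp than those without. The log2 ratio of CPM (with a pseudocount of 1 CPM) was 1.26, 1.76 and 1.08 in sham and 0.54, 0.54 and 0.45 in DOCA-salt mice for Apoe, and 0.15 to 0.67 over the 6 mice for Tyrobp. Both were higher with Trem2 in 6 of 6 mice, and remained so in 6 of 6 when cells were thinned to 1000 UMIs before the division. Cd9 (mean log2 ratio 0.78), Lgals3 (0.51), Lpl (0.33) and Abca1 (0.42) were higher in 5 of 6 mice (after thinning Cd9 in 5, Lgals3 and Lpl in 4 and Abca1 in 3), whereas Abcg1 (0.01) and Cd36 (−0.15) were higher in 2 of 6. After thinning, the mean log2 ratio of Abca1 turned to −2.62 and that of Abcg1 to −1.34. The thinned sham cells with Trem2 numbered 5, 4 and 7, with 5000, 4000 and 7000 UMIs in all. There, members other than Apoe and Tyrobp rest on few counts or 0, so their thinned ratios and counts of mice cannot be read. Gpnmb UMIs numbered 216 in the cells with Trem2 and 7 in those without, and 23 and 6 without DOCA-salt mouse 2. Its ratio was higher with Trem2 in 5 of 6 mice, but sham cells held only 1, 1 and 0 UMIs with Trem2 and 0, 3 and 0 without. After thinning it was higher in 1 mouse, at counts too low to be read. Cells with a Trem2 UMI were deeper, with medians of 3982 to 6536 UMIs per mouse against 3556 to 4564, and because Trem2 defined the division its own values were not compared. These ratios are descriptions, with no test.

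Apoe, Abca1, Cd36 and Lpl also changed in the macrophages without a Trem2 UMI, of which there were 120, 122 and 122 in sham and 225, 323 and 403 in DOCA-salt mice. A cell without a Trem2 UMI may still express the gene, since detection depends on depth. The mean share of DOCA-salt macrophages with a UMI was 46.7% as counted and 17.7% after thinning to 1000 UMIs. These cells are therefore not shown to lack Trem2. Among the macrophages without a UMI, 2 of 8 tested members were called higher (2.33% of 7196 genes) and 2 lower (2.4%). Apoe stood at 5760, 3372 and 6115 CPM in sham and 16876, 17887 and 14172 CPM in DOCA-salt mice, and Abca1 at 79.4, 53.4 and 41.8 against 147, 159 and 162 CPM. Neither overlapped between groups, with log2 changes of 1.57 ± 0.23 (edgeR adjusted p = 0.000155) and 1.31 ± 0.21 (0.000400). Cd36 fell by 1.07 on the log2 scale (SE 0.17, edgeR adjusted p = 0.000608). Lpl was at 344, 273 and 286 against 181, 205 and 216 CPM, without overlap, and fell by 0.69 (SE 0.16, edgeR adjusted p = 0.0137). The Lpl call was lost without sham mouse 1, DOCA-salt mouse 1 or DOCA-salt mouse 3 (edgeR adjusted p = 0.111, 0.0852 and 0.0519) and with replicate numbers as a block (0.0566).

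Macrophages with a Trem2 UMI were few in sham mice (32, 14 and 15 cells), and 1 of 8 tested members other than Trem2 was called higher (0.398% of 7040 genes) and none lower (0.384%). Abca1 was at 31, 112 and 61.5 CPM in sham, from 5, 8 and 5 UMIs, and at 248, 244 and 301 CPM in DOCA-salt mice. The groups did not overlap, and the log2 rise was 2.11 ± 0.34 (edgeR adjusted p = 0.00131). Apoe was at 13786, 11393 and 12928 against 24511, 26068 and 19336 CPM, also without overlap, with a log2 change of 0.81 ± 0.24 that missed the threshold in edgeR (adjusted p = 0.135) and passed it in DESeq2 (0.00399). Whether Apoe or Abca1 changed differently with and without Trem2 was not tested.

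**Figure D5:**
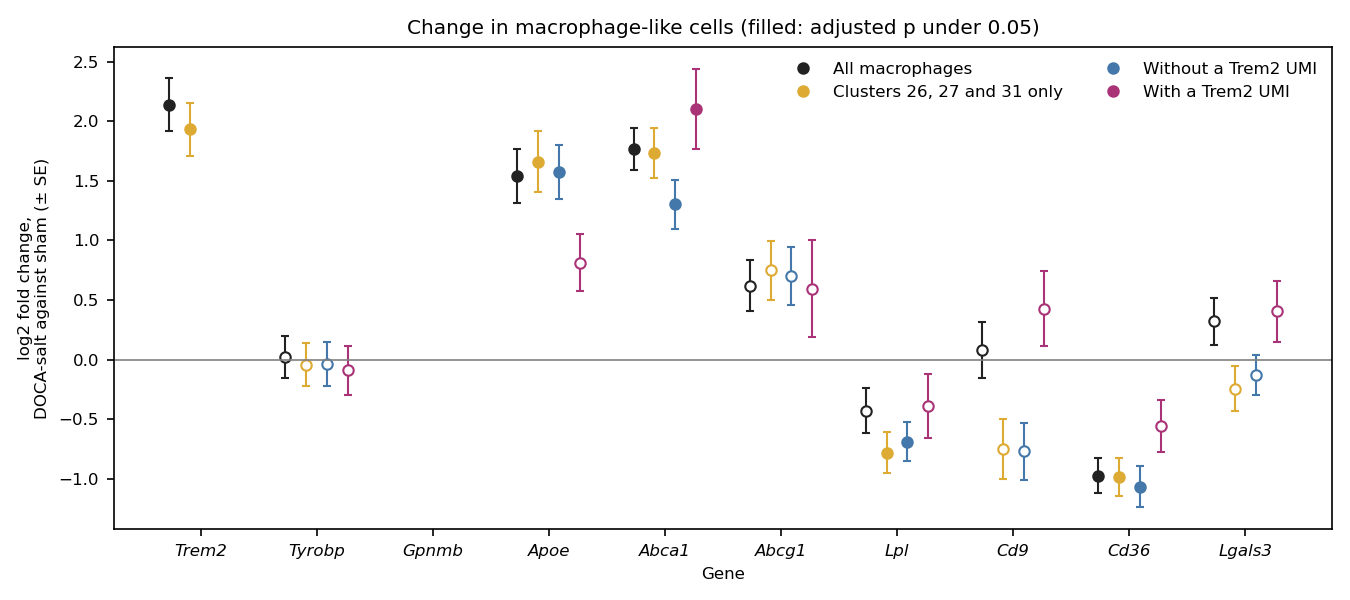
Points give the log2 fold change of each gene, DOCA-salt against sham, with its SE, in all macrophages (black), in clusters 26, 27 and 31 only (yellow), and in macrophages without (blue) and with a Trem2 UMI (purple); filled points have an edgeR adjusted p under 0.05. Trem2 is not shown for the groups it defines, Gpnmb was not tested, and Abca1 is filled in all 4 settings.

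The macrophage clusters were filled unevenly by the groups. Cluster 26, led by Ccl4, Ccl3 and Tnf, held 85, 77 and 93 sham but 15, 11 and 16 DOCA-salt cells, and clusters 28, 34, 39 and 42 held mostly DOCA-salt cells. In the sums over clusters 26, 27 and 31 alone, which had at least 10 cells in every mouse, Trem2 (log2 1.93 ± 0.22), Apoe (1.66 ± 0.26), Abca1 (1.74 ± 0.21) and Cd36 (−0.99 ± 0.16) kept their calls, and Lpl fell by 0.78 (SE 0.18, edgeR adjusted p = 0.00987). The groups still filled these 3 clusters unevenly: cluster 26 gave 255 of the 365 sham and 42 of the 706 DOCA-salt cells, cluster 27 gave 72 and 476, and cluster 31 gave 38 and 188. That made 3 of 9 members higher against 2.47% of 7080 genes and 2 lower against 2.13%. Cd9 turned from 0.08 to −0.75 ± 0.25 (edgeR adjusted p = 0.0990), without a call in either. Within single clusters, Apoe rose in cluster 27 (log2 1.32, edgeR adjusted p = 0.00905; 0.411% of 5113 genes called higher, 0.567% lower) and in cluster 31 (2.14, 0.000885; 0.569% of 1757 higher, 0.512% lower). Trem2 had 1, 0 and 1 UMIs in sham and 29, 53 and 54 in DOCA-salt mice in cluster 31, where it passed the filter on low counts through the DOCA-salt mice alone, so no call is read there. In cluster 27 its change was smaller, 1.84-fold against 4.41-fold over all macrophages, and missed the threshold (log2 0.88 ± 0.30, edgeR adjusted p = 0.210), and in cluster 26 it was too low to be tested. Abca1 was not called in cluster 27 (log2 1.25 ± 0.35, edgeR adjusted p = 0.0919) or cluster 31 (0.38 ± 0.50, 0.883). Cd36 was called in none of the 3: its log2 change was −0.03 ± 0.24 in cluster 26 (edgeR adjusted p = 0.974), where its level was 681, 770 and 687 CPM in sham and 644, 563 and 891 CPM in DOCA-salt mice, −0.55 ± 0.23 in cluster 27 (0.350) and −0.70 ± 0.59 in cluster 31 (0.765). In cluster 26, edgeR called 0 of 6 tested members (0.0361% of 2769 genes in each direction) and 2 had an unadjusted p under 0.05, Apoe (log2 0.95, edgeR adjusted p = 0.236) and Cd9 (−0.89, 0.472). These single-cluster tests were chosen after the data were seen.

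When macrophages were instead taken barcode by barcode, as cells with at least 3 macrophage markers, more than of any other immune type, and at most 2% of UMIs from proximal tubule markers, 2687 cells were found, of which 78.3% were in the clusters. Trem2 kept its call there (log2 1.57, edgeR adjusted p = 0.0396). Apoe (0.96), Abca1 (1.21) and Cd36 (−1.62) kept their direction and lost their calls, with edgeR adjusted p of 0.0890, 0.109 and 0.0918. These sums held more UMIs than the clusters in every mouse, for DOCA-salt mouse 2 10731891 against 3919642. Cells outside the macrophage clusters thus gave most UMIs of that mouse's sum, and their part in the lost calls was not tested.

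In dendritic-like cells (25, 39 and 45 in sham and 64, 53 and 88 in DOCA-salt mice), edgeR called 0 of 7 tested members, DESeq2 also 0, and 1 had an unadjusted p under 0.05. Of 5805 genes, 0.121% were called higher and 0.0689% lower. That member was Apoe, at 25.0, 18.9 and 20.1 CPM in sham and 50.1, 130 and 67.5 CPM in DOCA-salt mice, without overlap but with an edgeR adjusted p of 0.120 (log2 1.90 ± 0.42). Dendritic cells of the sham mice held no Trem2 UMI, and those of the DOCA-salt mice 3. The difference of change between macrophages and dendritic cells, tested as an interaction in edgeR, passed for 0 of the 7 members that were also tested in dendritic cells, and 0 of these had an unadjusted p under 0.05 (0.357% of 7563 genes were called higher in macrophages and 0.714% lower; edgeR was the only tool run). Trem2 and Abca1 were too low in dendritic cells for their difference to be read. For Apoe the difference was −0.29 ± 0.37 on the log2 scale, so a larger change in macrophages than in dendritic cells was not shown.

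Monocyte-like cells (87 in all) had 0 of 5 tested members called, 0 with an unadjusted p under 0.05 and 0% of 1419 genes called in either direction, with edgeR as the only tool run. Their Trem2 stood at 52.9, 37.4 and 45.1 CPM in sham and 54.4, 37.9 and 68.1 CPM in DOCA-salt mice, from 2 to 5 UMIs each. The groups overlapped. Their Apoe (log2 0.04 ± 0.33) and Cd36 (−0.47 ± 0.33) also overlapped. Cd9 did not overlap, at 251, 262 and 203 CPM in sham and 435, 266 and 354 CPM in DOCA-salt mice, but missed the threshold (log2 0.49 ± 0.31, edgeR adjusted p = 0.942). In T cells, Lpl was called lower (58.0, 60.2 and 46.5 against 15, 20.3 and 24.7 CPM, log2 −1.5 ± 0.32, edgeR adjusted p = 0.0294; 0.482% of 6432 genes were called lower; of the T cell clusters, 36 held 33 sham and 202 DOCA-salt cells and 37 held 98 and 33), and none of the other 4 tested members passed. In B cells 0 of 2 tested members passed in edgeR (0% of 1756 genes in either direction), and Apoe had an unadjusted p under 0.05.

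Summed over all cells of a kidney, 8 of the 10 members changed. In such sums, as in bulk tissue, more cells of a type and more RNA per cell cannot be told apart. Against 11.5% of 19658 genes called higher, 6 members rose: Trem2 from 0.664, 0.368 and 0.445 to 7.41, 11.1 and 11.2 CPM, an 18.1-fold rise (log2 4.18 ± 0.26, edgeR adjusted p = 0.000183), Gpnmb 10.6-fold, Apoe 4.81-fold, Tyrobp 3.21-fold, Abcg1 2.42-fold and Abca1 1.78-fold, with edgeR adjusted p of 0.000523 to 0.00713. With at most 20% mitochondrial UMIs the Apoe rise was 7.54-fold, and without DOCA-salt mouse 2 the log2 change of Gpnmb was 2.80 in place of 3.41. Apoe was at 232, 173 and 243 CPM in sham and 848, 1364 and 1186 CPM in DOCA-salt kidneys, and Tyrobp at 20.2, 16.7 and 22.4 against 47.0, 82.6 and 79.0 CPM. Neither overlapped. Against 5.69% called lower, Lpl (log2 −0.94 ± 0.18, edgeR adjusted p = 0.00947) and Cd36 (−0.65 ± 0.13, 0.0134) fell. Lpl was at 248, 378 and 262 CPM in sham and 185, 147 and 170 CPM in DOCA-salt kidneys. The Cd36 call was lost without sham mouse 1 (edgeR adjusted p = 0.0537) and with at most 20% mitochondrial UMIs (0.0970). Cd9 (log2 0.30 ± 0.18) and Lgals3 (0.17 ± 0.16) did not pass.

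With the macrophages left out of the sums, 6 members other than Trem2 kept their calls (9.41% of 19504 genes were called higher and 4.63% lower). Tyrobp went from a log2 change of 1.68 ± 0.21 to 0.58 ± 0.21 (edgeR adjusted p = 0.115) and lost its call. Trem2 went from 10, 7 and 8 to 141, 105 and 87 UMIs, a 10.6-fold difference for which it passed the filter on low counts through the DOCA-salt mice alone. Apoe was 2.29-fold, Abcg1 2.23-fold and Abca1 1.55-fold higher. Lpl (log2 −0.96) and Cd36 (−0.99) were lower.

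The cells outside the macrophages that carried these UMIs were then tested in the same way, a choice made after it was seen where the UMIs lay. In endothelial cells, of which cluster 5 (led by Cldn5 and Sox17) held 685 sham and 435 DOCA-salt cells and cluster 4 (led by Plvap and Kdr) 810 and 1584, the exporters rose and Lpl fell: Abcg1 from 29.0, 26.6 and 20.3 to 81.9, 113 and 114 CPM (log2 2.03 ± 0.17, edgeR adjusted p = 0.000221), Abca1 from 65.7, 74.3 and 73.8 to 125, 147 and 147 CPM (0.99 ± 0.12, 0.000747), and Lpl from 76.0, 96.8 and 101 to 51.7, 49.1 and 46.5 CPM (−0.88 ± 0.14, 0.00277). No group overlapped. There, 2 of 8 tested members were higher against 6.63% of 12810 genes, and 1 was lower against 4.64%. Cd36, which also carries fatty acids across the endothelium, did not pass, at a log2 change of 0.01 ± 0.15. Lpl was lower in T cells too, where the share of cells with a UMI, thinned to 1000 UMIs, went from 4.45% to 1.84%. The part of free RNA in the endothelial Lpl values was not tested.

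In proximal tubule cells, Apoe was higher (4.54% of 16258 genes were called higher) and Lpl and Cd36 lower (1.87%). The groups' cells lay partly in different clusters: clusters 2, 7 and 9 held 3134, 2830 and 2469 sham against 342, 142 and 108 DOCA-salt cells, and clusters 3 and 11 held 115 and 107 sham against 2348 and 2189 DOCA-salt cells. Lpl went from 277, 462 and 300 to 143, 71.5 and 120 CPM (log2 −1.69 ± 0.28, edgeR adjusted p = 0.0124) and Cd36 from 80.3, 70.9 and 81.8 to 48.9, 31 and 49.3 CPM (−0.91 ± 0.18, 0.0215). Both fell without overlap. Apoe rose from 184, 154 and 186 to 289, 406 and 288 CPM (0.85 ± 0.16, 0.0192). Trem2 went from 4, 1 and 2 to 32, 29 and 25 UMIs or means of 0.0464 and 0.630 CPM, far under its macrophage level, and passed the filter on low counts through the DOCA-salt mice alone, so its call is not read. Tyrobp, which tubule cells should lack, was at 0.904 and 3.52 CPM there and did not pass (log2 1.90 ± 0.50, edgeR adjusted p = 0.0577).

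Thick ascending limb cells had Apoe higher (166, 112 and 196 against 313, 437 and 370 CPM, log2 1.22 ± 0.21, edgeR adjusted p = 0.0153; 0.681% of 12196 genes) and Cd36 lower (24.1, 26.8 and 34.5 against 18, 8.27 and 10.9 CPM, −1.21 ± 0.25, 0.0393; 0.787%). Neither pair of groups overlapped. In B cells, which should lack Apoe, its mean was 209 CPM in sham and 444 CPM in DOCA-salt mice, with overlap. The share of T cells with a Cd36 UMI, thinned to 1000 UMIs, went from 1.32% to 0.304%. The part of free RNA was not tested here or for Apoe in the proximal tubule. Lpl, by contrast with the proximal tubule, was at 570, 734 and 616 CPM in sham and 939, 821 and 958 CPM in DOCA-salt mice, above every sham mouse, though its log2 change of 0.49 ± 0.13 missed the threshold (edgeR adjusted p = 0.0918). The difference between the tubule segments was not tested.

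Smooth muscle cells and pericytes, 107, 128 and 135 in sham and 99, 100 and 86 in DOCA-salt mice, held 0 Trem2 UMIs in the sham and 81, 23 and 27 in the DOCA-salt mice. The DOCA-salt level, 72.4 CPM over the group, was 39.1 times the 1.85 CPM that a count of 0 allows in the sham group if UMIs are independent (3 counts over the group, counting error only). Without DOCA-salt mouse 1, which held 81 of the 131 UMIs, the level was 41.5 CPM and the ratio 22.4. The UMIs were gathered in few cells, as given below, and so were not independent. Neither ratio is therefore a lower limit of the difference. Lgals3 was at 10.6, 5.50 and 3.91 against 34.9, 21.7 and 23.3 CPM, from 11 and 48 UMIs. Both genes passed the filter on low counts through the DOCA-salt mice alone, so no call is read from edgeR's test of them, and it called no other member here (0.893% of 7280 genes were called higher and 0.646% lower). The Trem2 UMIs lay in 16 of 285 cells, and 9 cells with at least 3 each held 120 of the 131. Those 16 cells had 0 UMIs of Tyrobp, 0 of C1qa, C1qb and C1qc and 1 of Csf1r, whereas 274 of 275 macrophages with at least 3 Trem2 UMIs had a Tyrobp UMI.

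Around the set, some genes of the same functions also passed the test, in lists chosen with earlier results of these data known. The counts below stand beside 2.63% of all genes called higher and 3.15% lower in macrophages, a median log2 change of −0.0045, and 2.47% and 2.13% in the sums over clusters 26, 27 and 31. Among 11 genes of TREM2 signalling and shedding, all tested in macrophages, 2 rose and 0 fell (median log2 change 0.15): Ms4a6d (40.6, 23.3 and 26.1 against 88.5, 115 and 81.6 CPM, log2 1.52 ± 0.24, edgeR adjusted p = 0.000785), of the MS4A family linked to soluble TREM2, and the progranulin gene Grn (1.21 ± 0.16, 0.000174). Of 14 tested among 16 genes of lipid-associated macrophages, 4 rose and 0 fell (median 0.49), with Ctsd, the lysosomal protease cathepsin D, at 128, 154 and 114 against 630, 680 and 548 CPM (2.11 ± 0.17, 2.46e-06), Spp1 (2.06 ± 0.26, 0.000157) and Igf1 (1.31 ± 0.23, 0.00201). The fourth was Ctsb (0.92 ± 0.17, edgeR adjusted p = 0.00328), named outside the rule for named genes and after its value was seen. Restricted to clusters 26, 27 and 31, the counts were 2 up and 0 down of 9, and 4 up and 1 down of 13.

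In the list for liver X receptors and cholesterol export, 1 of 14 tested genes (of 15) rose and 1 fell, with a median of 0.29, beside the same 2.63% and 3.15% of all genes. Pltp, the phospholipid transfer protein, rose by 1.82 ± 0.27 (edgeR adjusted p = 0.000538). Apoc2, the cofactor of lipoprotein lipase, was at 0, 5.37 and 1.87 CPM in sham and 26, 25.0 and 24.1 CPM in DOCA-salt macrophages, and is not counted as a rise, since it passed the filter on low counts through the DOCA-salt mice alone. Lpcat3, which remodels membrane phospholipids, fell by 1.23 on the log2 scale (edgeR adjusted p = 0.000231). For lipid uptake and storage, 3 of 10 tested genes (of 15) rose and 1 fell (median 0.33). DESeq2 called 2 of this list higher and 1 lower. The engulfment receptor Mertk (1.22 ± 0.19, edgeR adjusted p = 0.000938), the scavenger receptor Msr1 (0.99 ± 0.28, 0.0431) and Lrp1 (0.82 ± 0.21, 0.0307) rose and Pparg, named after its value was seen, fell by 0.70 (0.0264). Of 8 tested sterol synthesis genes, edgeR and DESeq2 called 0 and 3 had an unadjusted p under 0.05 (median −0.23). Restricted to clusters 26, 27 and 31, the export list had 1 up and 1 down of 9, the uptake list 1 up and 0 down of 8 and the sterol list 0 of 6.

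As a measure of handling, 21 genes known to respond to tissue dissociation had 2 members called higher and 3 lower in macrophages (median −0.15), against 2.63% and 3.15% of all genes, with Ier3 at 0.81 ± 0.18 (edgeR adjusted p = 0.0114), Hspa1a at −0.90 ± 0.21 (0.0162) and Hsp90aa1 at −0.79 ± 0.17 (0.00808). Their summed level was 23992 to 34780 CPM in sham and 24464 to 30588 CPM in DOCA-salt macrophages, which overlapped. Their part in the results above was not tested.

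The genes whose log2(CPM + 1) followed that of Trem2 most closely over 93 sums of a cell type in a mouse (17 types) were Spic (Pearson r = 0.82), Msr1 (0.81), Fcgr1 (0.81), Adgre1 (0.74) and F13a1 (0.73), all transcripts of macrophages and monocytes. Among the members, Apoe had r = 0.66, Cd36 0.51 and Tyrobp 0.45, and the other 6 had 0.32 or less. The points share libraries and depth, and Fcgr1 and Adgre1 are among the markers that named the macrophage clusters, so these correlations are a description.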

How the data were processed

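Kidneys of 3 sham and 3 DOCA-salt mice were profiled as single cells. Per the labels and the study's methods, the authors aligned 10x Genomics 3′ reads to GRCm39 with Cell Ranger (9.0.0 in the submitters' processing notes, 8.0.1 in the file headers) and deposited raw UMI counts per gene and barcode, 1 matrix per mouse; the notes also name Seurat 4.0.0 and R 4.0.3.

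The study's filters were applied to 76774 barcodes: a gene minimum of 170, a UMI minimum of 500, and ceilings of 50% for mitochondrial and 5% for hemoglobin transcripts. This kept 60561, from which 4931 doublets were removed with Scrublet (in place of the study's doublet caller) at 0.8% per 1000 cells. Cells were clustered with Scanpy 1.11.5 (2000 variable genes, Leiden resolution 1, no batch correction, as the study's integration step was not repeated) and named from marker genes, so the cell types here are rebuilt and may differ from the study's. UMIs were summed per mouse and type (types with at least 10 cells in every mouse) and tested with edgeR 4.0.16 (filterByExpr, TMM, quasi-likelihood F test, Benjamini-Hochberg) in R 4.3.3. SEs are the absolute log2 change divided by the square root of F. DESeq2 1.42.0 was the alternative tool. CPM are counts per 1000000 UMIs of the sum. Shares after thinning are the mean chance of at least 1 UMI of the gene among 1000 UMIs drawn from a cell (SciPy 1.17.1). Exact permutation tests over mice compared the macrophage shares. The division of thinned macrophages instead used a random draw of 1000 UMIs per cell. The fits were tested on simulated counts with known changes.

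The genes, lists and tests were chosen with earlier results of these data known. Named were the 10 members, from each list up to 3 called genes with the largest change in macrophages, and the 5 genes most correlated with Trem2. Alternatives covered the tool, scaling, filters, replicate block, each mouse left out, mitochondrial limit, doublets, clustering and the definition of macrophages. UMI counts limit the precision of low genes, and counting intervals cover counting error only. A further marker used in naming the clusters is not reported here.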

Additional observations from a re-analysis of the deposited data

Results flagged for a closer look

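Trem2 UMIs in smooth muscle cells and pericytes stood out as signal outside the myeloid cells that the comparisons were about. There were 131 in 285 DOCA-salt cells and 0 in 370 sham cells, found in each DOCA-salt mouse (81, 23 and 27 UMIs). The 9 cells with at least 3 Trem2 UMIs had a higher pooled level than the other DOCA-salt cells of the class for Acta2 (23600 against 8062 CPM), Ren1 (2606 against 241 CPM), Fn1 (2463 against 120 CPM) and Tnc (538 against 20.5 CPM), values looked up after the cells had been picked out. Notch3 went the other way: it was lower in the cells with a Trem2 UMI than in the whole class in each DOCA-salt mouse (127 against 770, 451 against 860 and 126 against 938 CPM), and Myh11 was lower in mouse 2 (2649 against 3049 CPM) and higher in the other two. The highest cell held 29 Trem2 UMIs, and the 16 cells with any were deeper than the others, with medians of 9722 and 5325 UMIs. No cause was tested.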

How the results depend on the processing

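The calls of Trem2, Apoe, Abca1 and Cd36 in macrophages were kept under DESeq2, both other scalings, the replicate block and each mouse left out (4 to 5 members called) and with no filter (6 called). Macrophages taken barcode by barcode left 1 call, and single clusters, tried after seeing the data, left 0 (cluster 26), 1 (cluster 27) and 2 (cluster 31, of which Trem2 passed the filter on low counts through the DOCA-salt mice alone), with fewer cells in each. Of 640 alternative values, 569 kept their direction and side of the threshold, 17 lost a call, 13 gained one and 41 changed sign. These alternatives covered only part of the 95 member results. They were run for macrophages (all, with and without a Trem2 UMI), whole kidneys, dendritic cells and the interaction. No alternative fit was run for monocytes, T cells, B cells, proximal tubule, endothelial or thick ascending limb cells, or smooth muscle cells and pericytes. Scaling by library size only shifted the median of all genes by 0.12 on the log2 scale in macrophages and in kidneys, and the share of higher among all calls went from 45.5 to 66.6% and from 67.0 to 81.5%.

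The numbers 1 to 3 are shared by the groups but did not pair the mice: same-number correlations of deviations were −0.0746, −0.267 and −0.0412 in macrophages and −0.0188, −0.413 and −0.0479 in kidneys. With a replicate block, 4 members were called in macrophages, 8 in kidneys, 3 in macrophages without a Trem2 UMI, 1 in those with it and 0 in dendritic cells, and the call lost was Lpl.

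With each mouse left out, 7 to 8 members were called in kidneys, 3 to 5 in macrophages without and 1 to 2 in those with a Trem2 UMI, and 0 to 0 in dendritic cells and in the interaction. In macrophages with a Trem2 UMI, DESeq2 called 2 and no filter 2. No filter gave 1 in dendritic cells. The difference in the share of macrophages with a Trem2 UMI, 13.5 percentage points, was 32.6 without thinning, 21.7 at 2000 UMIs, 7.27 at 500 UMIs, 9.73 for macrophages taken barcode by barcode, 10.4 in the shared clusters and 12.9 to 14.7 with each mouse left out. Division of thinned macrophages with a Trem2 UMI was not tested, as sham mice had fewer than 10 such cells.

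Changes of sign were found only among values without a call in the main setting. On the log2 scale in macrophages, Cd9 was −0.57 at resolution 2, −0.75 in the shared clusters, −0.89, −0.16 and −0.12 in clusters 26, 27 and 31 and −0.22 to 0.58 with each mouse left out. Tyrobp was −0.64 barcode by barcode, −0.041 in the shared clusters, −0.15 in cluster 27 and −0.090 to 0.13 with each mouse left out. Lgals3 was −0.084 at resolution 2, −0.26 barcode by barcode and −0.24 in the shared clusters, and Lpl was 0.052 in cluster 31. Lgals3 in kidneys was −0.039 without macrophages. In macrophages without a Trem2 UMI, Tyrobp was 0.072 by library size, 0.029 with no filter, 0.10 after thinning and −0.19 to 0.077 with each mouse left out, and Lgals3 was 0.11 after thinning and −0.21 to 0.0031. In those with it, Tyrobp was 0.12 with no filter and −0.19 to 0.069. In dendritic cells Cd9 was 0.047 by library size and 0.076 with no filter, and with each mouse left out Cd36 was −0.79 to 0.18, Cd9 −0.094 to 0.070, Tyrobp −0.42 to 0.13, Lgals3 −0.50 to 0.056 and Abcg1 −0.0056 to 0.75. For the interaction, Cd9 was −0.28 to 0.54, Apoe −0.51 to 0.054, Tyrobp −0.038 to 0.28 and Lpl −0.51 to 0.25. The cause of these changes was not tested.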
